A study of Rattus norvegicus with 10 samples.

Results

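The rat lens capsule transcriptome was examined for the genes that its annotation does not class as protein-coding. They were taken as every nuclear row of the deposited table whose biotype was not protein-coding, which gave 217 of 3334 listed genes. Of these, 93 carried a non-coding or pseudogene biotype: 25 pseudogenes, 24 processed pseudogenes, 20 lincRNAs, 16 processed transcripts, 5 miRNAs, 2 snoRNAs and 1 unprocessed pseudogene. The other 124 had neither a name nor a biotype and are called unannotated genes here, since nothing in the table shows whether they code for protein. The remaining rows were 3113 protein-coding genes and 4 non-coding genes of the mitochondrial genome.

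The lens capsule is the membrane that encloses the lens, and each sample also held the cells attached to it. RNA-seq had been carried out on 10 samples, each made from both lens capsules (2) of 1 rat, a male Sprague-Dawley 6 weeks of age. In the Hypothermia Group (n = 5 rats) isolated lenses were kept in Hibernate-A, a medium for holding tissue, at 4°C for 8 h before the capsules were taken, and in the Normal Group (n = 5 rats) the capsules were removed at once. The groups thus differed in temperature, in time outside the animal and in medium together, and these cannot be told apart. In whole capsules a change in the mix of cells and a change in RNA per cell cannot be told apart either.

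Genes outside the protein-coding class make RNAs of several kinds. A lincRNA is a long RNA transcribed from between coding genes, many of them of unknown use. A processed pseudogene is a copy of a messenger RNA that was written back into the genome, so it has no introns and often closely resembles its parent gene. A miRNA is cut from a short hairpin and lowers the output of messenger RNAs that match its seed, the bases 2 to 8 from its 5′ end, while snoRNAs guide the chemical modification of other RNAs, mainly ribosomal RNA. A processed transcript is, in this annotation, a transcript with no open reading frame assigned to it.

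Mir184, the only listed miRNA with a curated name, gives rise to miR-184, which is known to be abundant in the epithelia of the lens and cornea. It is printed because it is the miRNA of this set with a known role in the tissue, and because the counts below are of reads over its hairpin locus, not of the mature molecule. The paper's reads were longer than each listed miRNA locus (77 to 138 bases). Reads of longer transcripts over these loci may therefore be counted, and their part was not tested. RefSeq (GRCr8) places the hairpin at chr8:99222982-99223058 and the mature miRNA at chr8:99222991-99223012, both on the minus strand. The first line shows the mature miRNA with its seed in capitals, and the second shows the hairpin with the mature miRNA, its bases 47 to 68, in capitals.
miR-184: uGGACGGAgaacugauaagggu
Mir184 hairpin: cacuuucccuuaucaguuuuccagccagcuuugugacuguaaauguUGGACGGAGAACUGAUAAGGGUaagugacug
Of the 724 mature rat miRNAs in the RefSeq table, 1 carried this seed, which was miR-184 itself. The other listed miRNAs were named AABR07010030.1, AC099089.1, Gm22877 and AABR07065531.1.

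The biotypes were compared with the RefSeq gene table of GRCr8, in which 17 of the 93 annotated members could be found by symbol or synonym. RefSeq gave 13 of these as protein-coding, 12 of them on the same chromosome. Among the processed transcripts 10 of 16 were coding genes there, among them Arid5b, Taf1, Rc3h1, Plekha6, Eef1aknmt (Mettl13 in RefSeq), AABR07064873.1 (Syne2), Astn1, Snx3 and Smg1. The pseudogenes Ubb, a polyubiquitin gene, and Sephs2, an enzyme that makes the selenium donor for selenoproteins, were also coding in RefSeq. For 4 members the non-coding class was the same in kind: Mir184, the lncRNA LOC100909912, AABR07071000.1 (Gabarapl3) and AABR07031521.1 (Hsc70-ps2). The label of non-coding therefore went against RefSeq for these 12 genes, which are named below by the biotype of the table together with their RefSeq class.

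Summed over the listed genes, the counts of a rat ran from 9026144 to 12415121 under hypothermia and from 4792595 to 8177803 in controls, and the genes studied here took 0.572 to 0.788% and 0.901 to 1.51% of these sums. The table was not a list of all expressed genes: every row had a log2 ratio of the authors' group means of at least 0.25 in size, so each gene had been chosen on the contrast tested here. In its integrated analysis the paper paired this fold limit with a limit on the adjusted p of its own DESeq2 test. Whether the rows had also passed that limit was not checked. Calls and non-overlap below are thus counts within a list selected on these same rats, not independent evidence of change. The 9 lens fibre markers checked were all listed and all higher in the Hypothermia Group (median log2 fold change 2.07), with summed FPKM of 206896 to 429318 against 38896 to 152915. Of 8 epithelial markers 4 were listed (Pax6, Gja1, Cryab and Maf), 2 called higher and 1 lower. Cryab, 1 of the 2 called higher, is also on the fibre list. Of 10 pigment epithelium and ciliary markers 6 were listed, with summed FPKM of 5.29 to 13.4 against 14.4 to 39.9, and of 7 fibroblast markers only Col1a1 and Fn1, at 0.205 to 1.27 against 1.25 to 9.77. No photoreceptor, vessel, blood or immune marker of the lists was in the table. The part of these marker differences in the results below was not tested.

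Normalized counts are counts divided by the authors' size factors, which were recovered from the table. A gene is called where the edgeR quasi-likelihood test gave an adjusted p under 0.05, and is a DEG where its log2 fold change, Hypothermia over Normal, also exceeded 1 in size. Of the 217 genes, 195 had enough counts to be tested. Of these, 108 were called higher in the Hypothermia Group and 31 lower. Over all 3222 tested genes of the table, 72.9% were called, 52.3% higher and 20.5% lower, and the share among the non-coding and unannotated genes was 71.3%, close to that background. With TMM scaling the split turned to 56 higher and 58 lower, where 19.8% of all genes tested that way were higher and 34.2% lower. TMM moved the median log2 fold change of the whole table by -0.29. With TMM and an adjustment over the tested rows alone, 93 were called higher and 61 lower, beside 32.3% and 36.2% of all tested genes.

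The DEGs were mostly unannotated genes. There were 51 higher and 10 lower DEGs, where 10.3% and 1.89% of all tested genes were DEGs in these directions. The 51 became 29 under TMM and 31 without Normal Group replicate 4. At a mean of at least 50 counts the 51 became 31 and the 10 became 1. No share of DEGs over all tested genes was computed for the other fits given here. The 10 became 15 under TMM, 29 with DESeq2 at its own size factors, and 4 without Hypothermia Group replicate 5, Normal Group replicate 4 or Normal Group replicate 5, 5 without Hypothermia Group replicate 3 or 4, and 6 without Hypothermia Group replicate 1 or Normal Group replicate 2. Of the 51 and the 10, 45 and 7 were unannotated, which left 6 higher and 3 lower among the 82 tested genes with a biotype. In 83 tested members every rat of the Hypothermia Group lay above every rat of the Normal Group, and in 27 every rat lay below, where the whole table gave 41.9% and 16.7% of tested genes. The summed normalized count of all 217 genes ran from 74381 to 95420.4 per treated rat and from 57393 to 68125 per control rat. With the authors' size factors these sums did not overlap. As a share of the listed counts, the same genes took less in treated rats (0.572 to 0.788%) than in controls (0.901 to 1.51%).

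The biotypes moved in different directions. For comparison, 63.0% of all listed genes had higher counts in the Hypothermia Group, and of all tested genes 52.3% were called higher and 20.5% lower (19.8% and 34.2% under TMM). All 24 processed pseudogenes had higher counts in the Hypothermia Group, 14 of the 21 tested were called higher and none lower, and the median log2 fold change was 0.83. TMM scaling kept 22 of 22 higher with 9 called, but scaling by listed-gene totals, which lowered the median of all genes by 1.23, left 1 of 22 higher. Of the 25 pseudogenes 21 were higher, 18 of them called and none called lower (median 0.67). Under TMM this became 20 higher with 9 called higher and 4 called lower, and under listed totals none of the 25 was higher and 11 were called lower. No share of calls over all tested genes was computed under listed totals. The summed count of the processed pseudogenes was 3254 to 4549 per rat against 1937 to 2586, and that of the pseudogenes 22803 to 28696 against 16236 to 19351.

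Processed transcripts stood on the other side. Of 16, only 5 had higher counts, 2 were called higher and 5 lower, and the median log2 fold change was -0.38 (TMM: 4 higher, 0 called higher and 10 called lower, and listed totals: none higher). Leaving out the 12 genes that RefSeq gives as coding, 62 of 81 genes with a biotype were higher, and of the 70 of them tested 44 were called higher and 4 lower (22 and 13 under TMM). Those 12 had a median of -0.25 with 3 called in each direction (0 higher and 6 lower under TMM). The summed count of the processed transcripts was 8228 to 9061 per rat in the Hypothermia Group and 9097 to 11206 in the Normal Group. The lincRNAs were mixed, with 12 of 20 higher, 9 of 14 tested called higher and 2 lower (median 0.47, with 2 and 4 called under TMM, and 2 of 13 higher under listed totals). The unannotated genes were the most spread: 79 of 124 were higher, 61 called higher and 24 lower (median 0.80, with 34 and 39 called under TMM, and 42 of 113 higher under listed totals). Their share of calls, 75.2% of those tested, was near the 72.9% of the whole table. Over all tested genes the median was 0.36, with 52.3% called higher and 20.5% lower (19.8% and 34.2% under TMM).

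**Figure D1:**
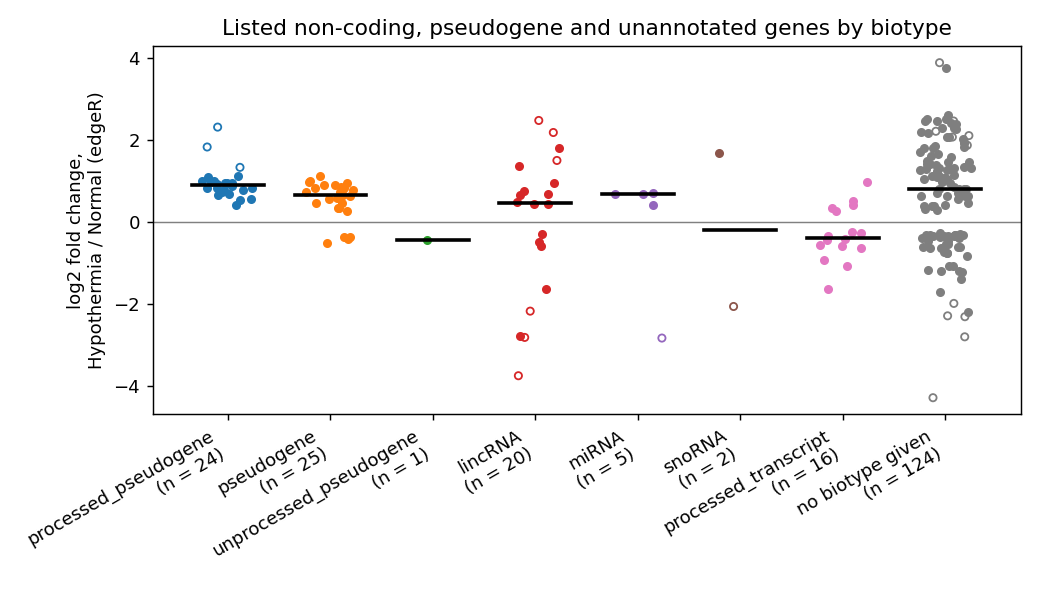
Each point is 1 gene, placed by the biotype of the table (x axis) and its log2 fold change, Hypothermia over Normal, from edgeR without a low-count filter (y axis), with 5 rats a group. Hollow points are the 22 genes with too few counts for the main test and black bars are medians. All 24 processed pseudogenes lie above 0, and 11 of 16 processed transcripts lie below it, with the authors' size factors (under listed-gene totals 1 of 22 processed pseudogenes lies above).

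Among the loci annotated as small RNAs, the miRNA loci had summed counts of 1496 to 1795 per rat against 1098 to 1260, without overlap. These sums rest on the authors' size factors, and most of each came from the single locus AABR07010030.1. All 4 tested loci were higher except under listed totals, where none was. Mir184 (chr8:97175657-97175733, minus strand, Rnor_6.0, 77 bases) had normalized counts of 65.1, 92.0, 61.5, 72.5 and 47.0 in the Hypothermia Group and 47.2, 40.1, 50.9, 31.2 and 41.2 in the Normal Group. The groups overlapped, since the fifth treated rat lay below 2 controls, and the log2 fold change of 0.69 ± 0.22 (SE) did not pass (edgeR, adjusted p = 0.0630). The most counted miRNA locus was AABR07010030.1 (chr2:121153485-121153563, plus strand), with 1148, 1215, 1474, 1374 and 1288 against 973, 1046, 1010, 920.5 and 945. Every treated rat lay above every control, and the rise was 0.41 ± 0.08 (adjusted p = 0.00926), but with TMM scaling it was 0.12 with an adjusted p of 0.918.

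AC099089.1 (chr10:45297853-45297990, minus strand) is a miRNA locus that shares 54 bases with Trim17, a ubiquitin ligase gene on the plus strand. Its counts were 223, 161, 209.6, 219 and 234 against 132, 133, 136, 114 and 133, again without overlap. It rose by 0.69 ± 0.12 (adjusted p = 0.00575), and Trim17 rose by 0.67 ± 0.15 (adjusted p = 0.0150). Trim17 did not pass under TMM (0.37, adjusted p = 0.127), and AC099089.1 passed under TMM (adjusted p = 0.0356) but not with median-of-ratios (0.0544) or upper-quartile scaling (0.0672). Counting is not stated to use strand, so reads of the shared bases cannot be assigned to either gene. Gm22877 (chr15:87847291-87847395) measured 57.9, 52.3, 50.2, 67.4 and 69.9 against 34.2, 35.99, 44.6, 25.6 and 43.0. It was called higher at 0.70 ± 0.21 (adjusted p = 0.0491), a call that was lost whichever of the 10 rats was left out. AABR07065531.1 (chr6:133662524-133662603) had raw counts of only 2, 1, 0, 0 and 1 against 0, 5, 14, 9 and 16 and was not tested. It was low in all 5 treated rats and at 0 in the first control.

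Of the snoRNA loci, RF00405 alone passed. Both are shorter than a sequenced read, so reads of longer transcripts may be counted here too, and their part was not tested. RF00405 (chrX:98033341-98033452, plus strand, 112 bases) had 77.2, 91.0, 27.6, 50.01 and 92.7 normalized counts in the Hypothermia Group against 11.1, 27.0, 24.7, 24.0 and 17.4. The lowest treated rat lay just above the highest control, and the rise of 1.69 ± 0.36 passed (adjusted p = 0.0108). RF00156 (chr5:120163880-120164007, plus strand, 128 bases) had 3, 2, 3, 0 and 0 raw counts against 6, 6, 7, 11 and 18. All treated rats were below all controls, at counts too low for the main test, and without the filter the difference did not pass (log2 fold change -2.07 ± 0.72, adjusted p = 0.0831).

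**Figure D2:**
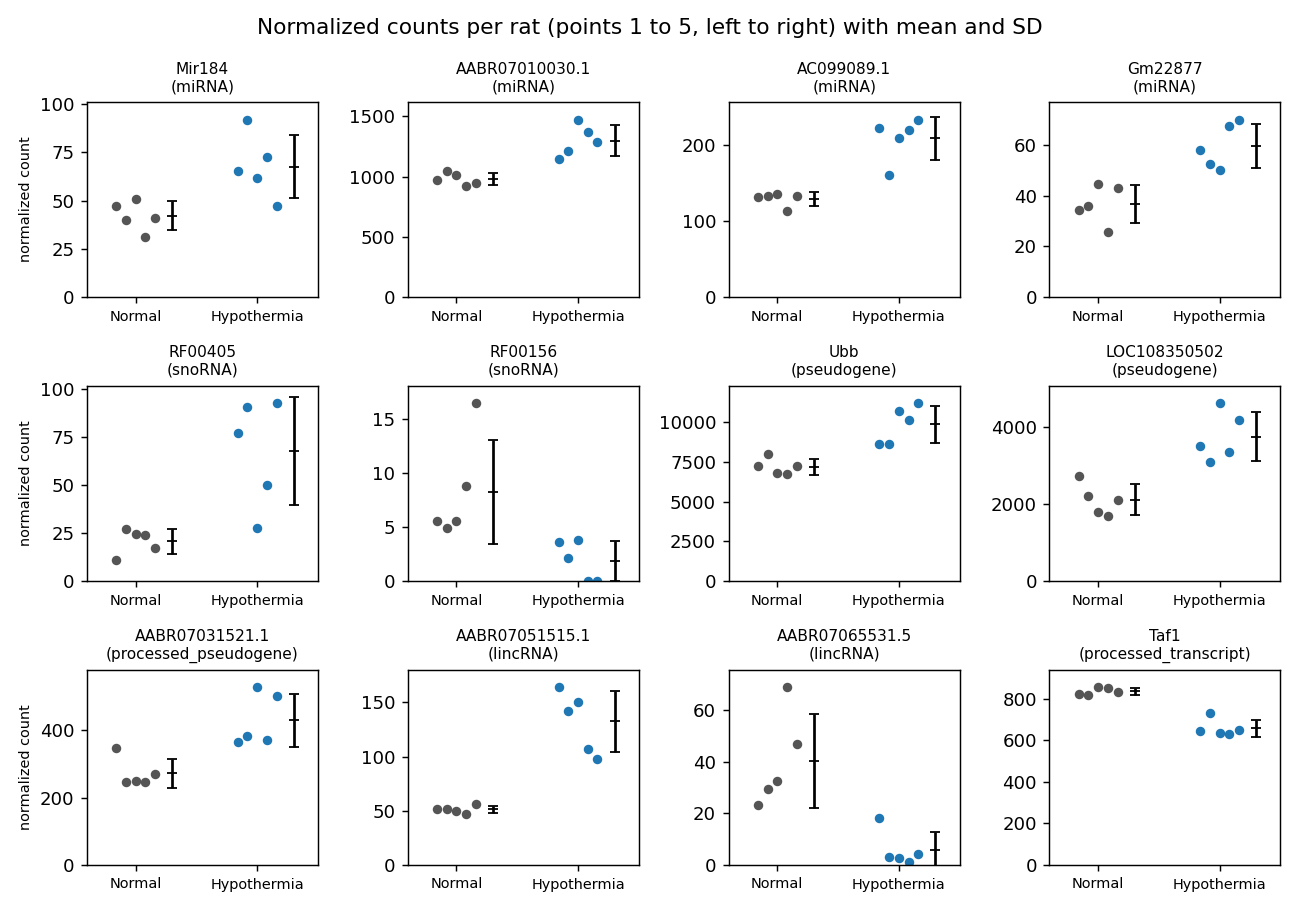
Normalized counts per rat (y axis, from 0) for 12 genes, with the rats numbered 1 to 5 from left to right in each group and the mean and SD beside them (n = 5 rats a group). Groups do not overlap in AABR07010030.1, AC099089.1, Gm22877, RF00405, RF00156, Ubb, LOC108350502, AABR07031521.1, AABR07051515.1, AABR07065531.5 and Taf1, and overlap in Mir184.

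Of all 217 genes the pseudogene Ubb had the highest mean normalized count. Ubb (chr10:48881049-48881881, plus strand, 824 bases) encodes chained ubiquitin units in RefSeq. It had 8613, 8642, 10678, 10159 and 11181 normalized counts against 7239.9, 7994, 6812, 6735 and 7230.4. No treated rat fell within the control range, and its mean FPKM, a level per length, was 719 ± 85.8 (SD) against 525 ± 36.4. The rise was 0.45 ± 0.11 (SE, adjusted p = 0.0166), which became 0.16 with an adjusted p of 0.475 under TMM.

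LOC108350502 (chr3:148283209-148284141, plus strand, 930 bases) had 3491, 3074, 4604, 3349.7 and 4184 against 2713, 2214, 1797, 1689.8 and 2098. All treated rats were higher, and the rise of 0.83 ± 0.15 (adjusted p = 0.00623) also passed with TMM scaling (0.54, adjusted p = 0.00647). AABR07073038.1 (chr4:118327533-118328602, minus strand) rose less, by 0.33 ± 0.09 (adjusted p = 0.0314), its call was lost when any of 6 rats was left out, and under TMM the value was 0.05 with an adjusted p of 1. The plus-strand lincRNA AABR07073038.2 begins 236 bases from it and rose by 0.44 ± 0.11 (adjusted p = 0.0217).

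The largest rise among the pseudogenes was that of AABR07004894.1 (chr1:166282107-166282689, minus strand, 579 bases). Its counts were 128, 116, 146, 119 and 159.9 against 65.7, 71.2, 62.9, 56.8 and 47.6, so that the lowest treated rat was well above the highest control. It rose by 1.13 ± 0.16 (adjusted p = 0.00459). The whole of it lies within the span of Fchsd2 on the plus strand, a gene of membrane bending and actin assembly, which fell by 0.38 on the log2 scale (SE 0.08, adjusted p = 0.00845). The pseudogene and the gene around it thus moved in opposite directions. AABR07064111.1, a processed pseudogene (chr6:64738329-64738877, minus strand), lies likewise within Nrcam, a neuronal cell adhesion gene on the plus strand, and here both rose, by 0.83 ± 0.14 (adjusted p = 0.00506) and 1.86 ± 0.34 (adjusted p = 0.00730).

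AABR07031521.1 is the processed pseudogene that RefSeq names Hsc70-ps2, a copy of the gene for the heat shock cognate protein (chr18:17116552-17118501, plus strand, 1950.0 bases). It had 365, 383, 528, 373 and 501 normalized counts against 349, 246, 249.8, 247 and 269. The first control was far above the other 4 yet below every treated rat, and the rise was 0.66 ± 0.14 (adjusted p = 0.0103, and 0.0514 under TMM). Hspa8, the gene for that protein, rose by 0.65 ± 0.14 (adjusted p = 0.0131) at a mean FPKM of 282 against 179, where the pseudogene had 13.3 against 8.39. Reads that could come from either copy may have been counted for both or neither, and their part was not tested. The same limit holds for the other processed pseudogenes, whose parent genes the table does not name.

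Other processed pseudogenes that rose were AABR07027555.1 (1.13 ± 0.24, adjusted p = 0.0119) and LOC100912427 (1.09 ± 0.24, adjusted p = 0.0127), the 2 DEGs of the class. LOC100912427 had 594 to 261 counts in treated rats and 283 to 146 in controls, with overlap. The shortest, AC095947.3 of 75 bases and thus shorter than a sequenced read, rose by 0.83 ± 0.17 (adjusted p = 0.00949). Gabarapl3 (AABR07071000.1), a relative of the autophagy gene Gabarap, had a log2 fold change of 0.42 ± 0.15 and did not pass (adjusted p = 0.0860). The 4 pseudogenes with lower counts, AABR07044080.2, AABR07032751.1, AABR07061902.1 and AABR07027575.1, had values from -0.52 to -0.36 and none passed with the authors' size factors, while all 4 passed under TMM. The lone unprocessed pseudogene, AABR07038926.1 (chrX:64094947-64096840, minus strand), had 103 to 151 counts against 129 to 195 and a log2 fold change of -0.45 ± 0.16 (adjusted p = 0.0903).

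By size of the log2 fold change, the largest called rise and fall among genes with a biotype were lincRNAs, AABR07054487.1 and AABR07065531.5. AABR07051515.1 (chr3:14659776-14700385, minus strand) had 164, 142, 151, 107 and 98.1 counts against 51.8, 51.5, 49.3, 47.2 and 55.8. The control rats lay within a narrow band and every treated rat was far above it, with a rise of 1.37 ± 0.18 (adjusted p = 0.00459). An overlapping lincRNA on the other strand, AABR07051515.2, had means of 7.91 against 2.71 normalized counts, too few for the main test, and no overlap between groups. AABR07054487.1 (chr3:156365964-156376988, minus strand) rose by 1.80 ± 0.42 (adjusted p = 0.0158), from 5.57 to 37.9 counts in controls to 46.0 to 111.7 in treated rats.

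AABR07065531.5 (chr6:133667975-133676907, plus strand) fell by 2.80 on the log2 scale (SE 0.59, adjusted p = 0.0106). Its counts were 18.1, 3.14, 2.51, 1.02 and 4.03 in the Hypothermia Group and 23.1, 29.5, 32.6, 68.8 and 46.7 in the Normal Group. The first treated rat held more counts than any other treated rat and still less than any control. It lies on the same strand as the miRNA locus AABR07065531.1, 5372 bases away, and an unannotated gene at chr6:133658939-133662366, 158 bases from that locus. The unannotated gene had raw counts of 5, 4, 3, 2 and 5 against 9, 17, 20, 51 and 36. All of them were lower in the Hypothermia Group, and the unannotated gene passed without the low-count filter (adjusted p = 0.0145) where the miRNA locus did not (adjusted p = 0.0767). These 3 rows were grouped after their values were seen.

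Of the remaining lincRNAs, LOC108349594 rose by 0.45 ± 0.09 (adjusted p = 0.00951) and LOC100909912 by 0.66 ± 0.14 (adjusted p = 0.0102), both without overlap between the groups. Under TMM they had adjusted p values of 1 and 0.0504. AABR07041096.1 fell by 0.50 on the log2 scale (SE 0.14, adjusted p = 0.0373), with overlap between groups and with a call that was lost in 6 of the 10 fits with a rat left out. AABR07017145.1 was nearly absent from treated rats, with 0, 0, 0, 0 and 2 raw counts against 4, 6, 21, 5 and 11 in controls. It passed without the low-count filter (edgeR, adjusted p = 0.0223), and no fold is given at 2 counts in all in the treated rats.

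The processed transcripts that passed were mostly long genes. AABR07064873.1, Syne2 in RefSeq, is a gene of 20660.0 bases of exon (chr6:98844926-99153551, plus strand) for nesprin-2, which ties the nucleus to the cytoskeleton. It had 1261, 1418, 973, 1301 and 1495 counts against 1596, 1789.9, 1751, 2313 and 2219. All treated rats were lower, and it fell by 0.58 on the log2 scale (SE 0.13, adjusted p = 0.0152). Taf1 (chrX:71412289-71485085, plus strand), the large subunit of the general transcription factor TFIID, had 647, 729.7, 635, 632 and 650.3 against 823, 819, 856, 851 and 831. Its control rats differed little from each other, no treated rat reached them, and the fall was 0.34 on the log2 scale (SE 0.06, adjusted p = 0.00704).

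Arid5b, a chromatin-binding regulator, fell by 0.44 on the log2 scale (SE 0.10, adjusted p = 0.0167), again without overlap. AABR07019383.1 and AABR07070307.1 fell by 1.63 and 1.08 (adjusted p = 0.0479 and 0.0287), but at means of 62.9 and 28.6 counts in controls, and their calls were lost in 8 and 6 of the 10 fits with a rat left out. The only processed transcripts called higher were Snx3, a sorting gene of the endosome, by 0.42 ± 0.11 (adjusted p = 0.0223), and Eef1aknmt, which methylates an elongation factor, by 0.33 ± 0.10 (adjusted p = 0.0432). They were lost in 5 and 8 of those fits. Smg1, a kinase of nonsense-mediated decay and the most counted processed transcript, had 2424 to 2895 counts against 2926 to 3580.0, without overlap, but did not pass (log2 fold change -0.25 ± 0.09, adjusted p = 0.0783).

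The 124 unannotated genes held most of the large differences. Their median mean normalized count was 113, against 138 in members with a biotype and 493 in listed coding genes. The part of low counts in the large differences was not tested. The rule named those called with a mean of at least 50 normalized counts and the 8 largest differences in each direction. Highest was the gene at chr11:65376377-65399910 (plus strand), with 177, 89.9, 149, 63.3 and 286 counts against 45.3, 17.997, 7.96, 13.6 and 40.3. Treated rats differed widely among themselves and were still all above the controls, and the rise was 2.62 ± 0.53 (adjusted p = 0.00976). The largest called difference among all the genes studied here lay below that count limit and was chosen after its values were seen. It was at chr4:152036082-152057116 (minus strand), which had 73.6, 34.5, 47.7, 26.5 and 69.9 against 3.70, 1.64, 3.18, 3.20 and 6.41 and rose by 3.76 ± 0.42 (adjusted p = 0.00459).

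The most counted unannotated gene with a large rise was at chr3:152468049-152549364 (minus strand). It had 4689, 2885, 7820.5, 3871 and 8764 against 2307, 1311, 421, 671 and 1122, at a mean FPKM of 105 ± 47.8 (SD) against 21.8 ± 13.6. The lowest treated rat and the highest control were the nearest, and the groups did not overlap, and the rise was 2.27 ± 0.47 (adjusted p = 0.0122). The gene at chr7:3051627-3053901 (minus strand), at an FPKM of 232 ± 29.97 against 150.0 ± 18.2, rose by 0.63 ± 0.12 (adjusted p = 0.00636). The rises at chr9:8566746-8571114 (2.37 ± 0.51), chr10:99928841-99942946 (2.48 ± 0.71), chr3:107777333-107793529 (2.29 ± 0.63) and chr2:266272573-266276397 (2.07 ± 0.57) also passed with adjusted p values from 0.0120 to 0.0442. The last 3 lost their calls in 8, 7 and 9 of the 10 fits with a rat left out.

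Overlapping unannotated genes moved together on chromosome 14. The gene at chr14:94321024-94644142 (plus strand) had 732, 524, 1106, 665 and 1522 counts against 377, 161, 40.6, 93.6 and 183, and the one at chr14:94263187-94341888 (minus strand) 166, 78.4, 152, 152 and 196 against 77.7, 21.3, 11.1, 19.2 and 22.0. In both, the first control was the highest of its group. They rose by 2.42 ± 0.51 and 2.31 ± 0.47 (adjusted p = 0.0133 and 0.0102). The first spans AABR07016141.1, a protein-coding gene on the same strand that rose by 2.90 ± 0.44 (adjusted p = 0.00459). A further minus-strand gene within it, at chr14:94354359-94356141, had raw counts of 6, 4, 12, 7 and 10 against 1, 1, 0, 0 and 1 and was not tested by the main fit. Pairs on opposite strands at chr10:81832557-81842745 and chr10:81829688-81840055 rose by 1.13 and 1.23, and at chr19:56492163-56499472 and chr19:56490439-56500774 by 1.30 and 1.31. Without strand, the reads of such pairs cannot be told apart.

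Among called unannotated genes the fall of largest size was at chr2:161655526-161661072 (-2.20 ± 0.50, adjusted p = 0.0146), below the count limit and chosen after its values were seen. Its raw counts were 5, 5, 4, 4 and 6 against 17, 14, 18, 64 and 42, without overlap, and it kept its call whichever rat was left out. The lowest of those named by the rule was at chr13:49986725-50082482 (-1.38 ± 0.42, adjusted p = 0.0491), followed by chr3:92668374-92674683 (-1.19 ± 0.35, adjusted p = 0.0437). Groups overlapped in both, and the calls were lost in 8 and 9 of the 10 fits with a rat left out. Falls without overlap were found at chr1:256378341-256382676 (-0.75 ± 0.17, adjusted p = 0.0130), chr19:59305402-59307924 (-0.64 ± 0.14, adjusted p = 0.0119) and chr10:58106105-58263795 (-0.62 ± 0.14, adjusted p = 0.0158), which kept their calls whichever rat was left out. The falls at chr7:124201581-124216675 (-0.76 ± 0.22) and chr17:86867615-86869025 (-0.64 ± 0.19) were lost in 7 and 8 of those fits. Unannotated genes with introns, 104 in number, had a median log2 fold change of 1.04, and of 96 tested 55 were called higher and 19 lower (31 and 29 under TMM). The 20 without introns had a median of -0.34, and of 17 tested 6 were called higher and 5 lower (3 and 10 under TMM), where the whole table had a median of 0.36 and 52.3% higher and 20.5% lower calls. Their median lengths were 2219.5 and 3789.5 bases, and the part of length in this was not tested.

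Gene length went with direction, in the genes with a biotype and in the unannotated ones. Of the genes up to 1000 bases, 73 of 85 (85.9%) had higher counts in the Hypothermia Group, and of those over 4000 bases 14 of 48 (29.2%) did. The bins between gave 29 of 41 (70.7%) up to 2000 bases and 30 of 43 (69.8%) up to 4000 bases. Protein-coding genes showed the same order, with 480 of 510 (94.1%), 742 of 904 (82.1%), 547 of 1022 (53.5%) and 181 of 677 (26.7%). Under TMM scaling 64 of 70 short and 14 of 48 long members were higher among those tested, and 456 of 492 and 162 of 667 coding genes.

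**Figure D3:**
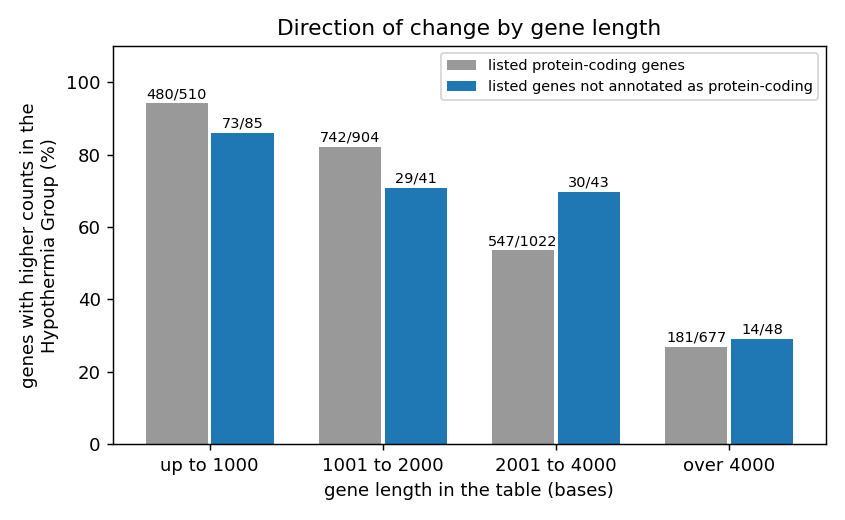
Share of genes with higher counts in the Hypothermia Group (y axis, percent) by gene length in the table (x axis, 4 bins in bases), for the 3113 protein-coding genes (grey) and the 217 other genes (blue), with counts above the bars. The share falls from 94.1 to 26.7% in coding genes and from 85.9 to 29.2% in the others with the authors' size factors, and every short-against-long order is kept under TMM.

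The biotypes differed in length as they did in direction. Median lengths were 566.5 bases for processed pseudogenes, 798 for pseudogenes, 1381 for lincRNAs, 2307 for unannotated genes and 5476.5 for processed transcripts, against 2197 for coding genes. Coding genes within the length range of the processed pseudogenes, 75 to 1950.0 bases, were higher in 1193 of 1380 cases (86.4%), beside 24 of 24 processed pseudogenes. The rank correlation across genes between length and log2 fold change was -0.48 over 82 tested genes with a biotype, -0.44 over 113 unannotated genes and -0.43 over 3023 coding genes. These are descriptions: the genes share the same 10 libraries and are not independent. The paper set a lower limit on RNA integrity but gave no value per rat. The part of RNA quality in the length pattern was not tested.

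The same difference was computed rat by rat. The median deviation of short genes from their mean over all rats, minus that of long genes, was 0.28 to 0.82 on the log2 scale in the treated rats and -0.72 to -0.31 in the controls. Coding genes gave 0.14 to 0.70 and -0.64 to -0.19, and neither set overlapped between the groups. Since each gene was centred on its mean over the 10 rats, these values show the spread of the group difference over rats, not an order within 1 rat. A common scaling of a library cancels in this difference. Limiting the genes to a mean of at least 50 counts left 31 of 34 short and 2 of 11 long annotated members higher, and 9 of 10 and 11 of 34 unannotated ones.

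**Figure D4:**
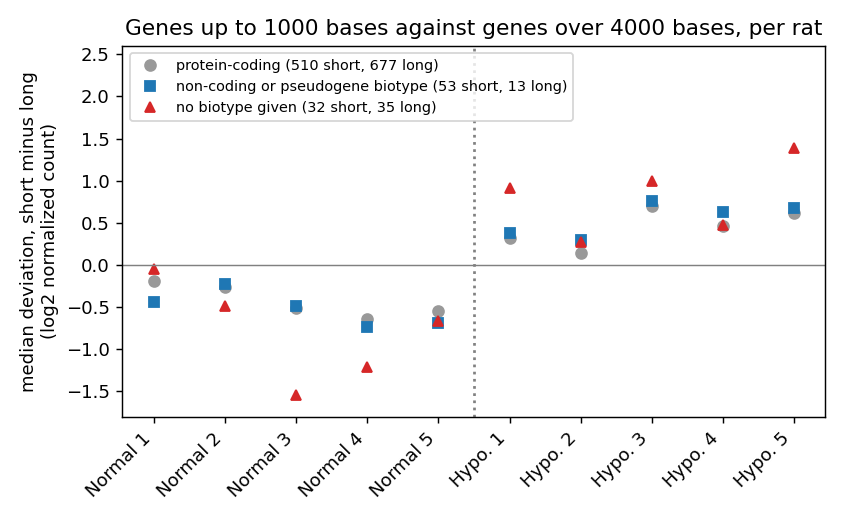
For each rat (x axis), the median log2 deviation of genes up to 1000 bases minus that of genes over 4000 bases (y axis, log2 of normalized counts). Deviations are from each gene's mean over the 10 rats, and the groups do not overlap for coding genes (grey), genes with a non-coding or pseudogene biotype (blue) and unannotated genes (red), and the unannotated genes range widest, from -1.55 to 1.39.

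Overlap with listed coding genes was rare. Of the 217 genes, 4 overlapped one, namely the pseudogenes in Fchsd2 and Nrcam, the miRNA locus at Trim17 and the chromosome 14 gene over AABR07016141.1. A coding gene of the list lay within 10 kb of 39 of 216 members on a chromosome that holds one, 18 of them on the same strand. In 33 of the 38 pairs in which both were tested, the members had log2 fold changes of the same sign, among them 27 of 30 pairs with an unannotated gene. Listed coding genes were themselves higher in 62.6% of cases, and no test of the sharing of sign was made.

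In 9 pairs the gap was at most 100 bases, always on opposite strands, with 5 pairs head to head and 4 tail to tail. All 9 had the same sign, and in 4 both were called. Of all tested genes 72.9% were called, and 63.0% of all listed genes were higher. No share over other pairs of genes was computed, so these counts do not set the 9 pairs apart. The pseudogene AC128792.2 began 73 bases from the coding gene LOC100360087, and they rose by 0.96 ± 0.19 and 0.88 ± 0.22 (adjusted p = 0.00926 and 0.0214). An unannotated gene lay 11 bases head to head from Vdac3, a channel gene of the outer mitochondrial membrane, and rose by 1.159 ± 0.30 where Vdac3 rose by 0.60 ± 0.13 (adjusted p = 0.0258 and 0.0109). Next to Sall1, a developmental zinc finger gene, at 42 bases, the unannotated gene rose by 1.32 ± 0.25 (adjusted p = 0.00690), and Sall1 itself, at 0.29 ± 0.10, did not pass (adjusted p = 0.0694). Tail to tail with Kmt5a, a histone methyltransferase gene, the values were 0.71 ± 0.18 and 0.81 ± 0.13 (adjusted p = 0.0219 and 0.00506). Beside Tcp11l1 both fell, by 0.32 and 0.43 on the log2 scale (adjusted p = 0.0145 and 0.0408).

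On the same strand as a coding gene, the reads of an unannotated gene may belong to the neighbour's transcript, which was not tested. The gene at chr19:59305402-59307924 lay 570 bases from Slc35f3, and their log2 fold changes were -0.64 and -0.59. The one at chr3:92668374-92674683 lay 2730.0 bases from Slc1a2, a glutamate transporter gene, with -1.19 and -1.33. Among annotated members, the pseudogene AABR07032751.1 lay 670.0 bases from Zfp516 (-0.43 and -0.37) and AABR07044080.2 lay 1899 bases from Rhou (-0.52 and -0.62). Of 17 tested same-strand pairs 14 had equal signs. The opposite signs were those of the lincRNA LOC108349594, at 0.45, and Chd2 at 2233 bases, a chromatin remodeller with -0.30, of the gene at chr7:3051627-3053901, at 0.63, and Ikzf4, at -0.63 and 7568 bases, and of the gene at chr4:22996923-23002899, at -0.62, and Sri, at 0.88 and 3344 bases.

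**Figure D5:**
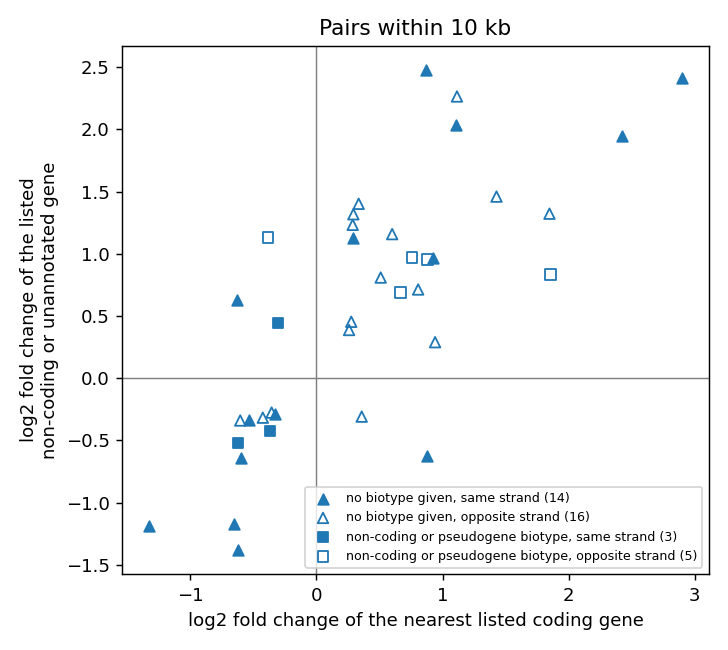
Each of 38 points is a gene without protein-coding annotation and its nearest listed coding gene within 10 kb, with the log2 fold change of the coding gene on the x axis and of the other gene on the y axis (triangles, unannotated, and squares, with a biotype, filled where both lie on 1 strand). Of these points 33 lie in the quadrants of equal sign, with the authors' size factors.

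The 22 genes with too few counts to be tested split into 12 higher and 10 lower, and 11 of them had a biotype. In 6 every treated rat was above every control and in 3 every one was below. Without the low-count filter 10 of the 22 passed. Of the 139 called genes, 73 kept their call whichever rat was left out, 64 of them higher and 9 lower. No share over the other listed genes stands beside the counts of this paragraph. They describe these members only and do not set them apart from the rest of the list.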

How the data were processed

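Read pairs were mapped by the authors with HISAT2 2.0.5 on Rnor_6.0, and they deposited raw read counts per gene from featureCounts 1.5.0-p3 (versions from the submitters' processing notes). The deposited FPKM values followed these counts divided by gene length and by the recovered size factors, up to a constant common to all rats. They thus carry the same scaling as the normalized counts. The authors' group means, a signal on the scale of normalized counts, came from DESeq2 1.16.1 and served only to recover the size factors (largest relative error 9.7e-10). The log2 fold changes and p-values that the authors deposited hold their own comparison and were not used. The annotation release and the strand setting are not given in the sources used here.

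The group difference was tested on the counts by the quasi-likelihood method of edgeR 4.0.16 (R 4.3.3), after filterByExpr and with robust dispersions. The model had no other term, and the offsets were the recovered size factors, 0.744 to 0.980 under hypothermia and 1.08 to 1.26 in controls. The Benjamini-Hochberg adjustment took 17000 tests, a round number for the expressed genes from which the list was drawn, since the 3334 rows are a selection. Standard errors were obtained from the fold change and its F statistic. On simulated counts for 3334 genes, 200 of them changed by 1 on the log2 scale, the test called 93% of these and 1 unchanged gene. The changed genes had means of at least 50 counts, which 150 of the 217 members reach. As many were raised as lowered, all genes shared 1 dispersion, and the scaling was taken as known. The simulation therefore checks the working of the test and not the error rate of the calls made here. Values after ± are SEs beside log2 fold changes and SDs beside FPKM. Groups came from the sample titles, each rat being 1 replicate, and p-values measure the spread between rats. Depth per rat was known only for the listed genes.

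The members and marker lists were chosen with earlier results of these data known. Named genes were curated non-coding RNAs, biotypes of at most 5 members, the 5 most counted members, the 8 highest and 8 lowest called log2 fold changes at a mean of at least 50 counts, called members overlapping a listed coding gene (up to 5), and pseudogenes of a listed parent. Other members named as examples were chosen after their values were seen. No description column gave parents, so the parent came from RefSeq synonyms. RefSeq tables of GRCr8 supplied names, classes and the miRNA sequences, of which 1 of 5 miRNA loci was found, and coordinates otherwise are those of Rnor_6.0. Alternatives were TMM, median-of-ratios, upper-quartile and listed-total scaling, DESeq2 1.42.0, other filters, robust = FALSE, adjustment over the tested genes, the replicate number as a block, and leaving out each rat. Figures were drawn with matplotlib 3.10.9.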

Additional observations from a re-analysis of the deposited data

Results flagged for a closer look

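Of 62 groups of 5 rats (31 named genes in both groups), 6 held a rat whose distance from the others exceeded Dixon's 95% limit of 0.71, where chance alone gives about 1 in 20. In AABR07038926.1 replicate 1 of the Hypothermia Group was highest, at 150.7 normalized counts against 103 to 110.2 in the others. In AC099089.1 replicate 4 of the Normal Group was lowest, at 113.6 against 132 to 136. In AABR07031521.1 replicate 1 of the Normal Group was highest, at 349 against 246 to 269, and the same control was highest at chr14:94263187-94341888, with 77.7 against 11.1 to 22.0. At chr2:266272573-266276397 replicate 5 of the Hypothermia Group had 713 against 354 to 432, and replicate 1 of the Normal Group had 310.8 against 26.3 to 94.3.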

How the results depend on the processing

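The number of calls followed the scaling, and signs of the 31 genes named by the rule turned only with listed totals. Shares of calls over all tested genes were computed only for the authors' size factors and for TMM. The counts under the other settings therefore describe these members and do not set them apart from the list. Members called higher, 108 with the authors' size factors, numbered 56 with TMM, 54 with median-of-ratios, 51 with upper-quartile and 7 with listed-total scaling, and 67 to 116 when a rat was left out (lowest without Normal Group replicate 4, highest without Normal Group replicate 1). Members called lower, 31, numbered 58 with each of TMM, median-of-ratios and upper-quartile scaling, 85 with listed totals, 47 with DESeq2 at the recovered size factors and 71 at its own, 61 with adjustment over the tested genes alone, 61 with that and TMM together (93 higher), and 13 to 29 when a rat was left out. DEGs higher, 51, became 29, 28, 25 and 7 under the 4 scalings, 31 at a mean of at least 50 counts and 31 to 65 with a rat left out. DEGs lower, 10, became 16, 16 and 60 with median-of-ratios, upper-quartile and listed-total scaling, 16 and 29 with DESeq2 at the recovered and at its own size factors, 1 at a mean of at least 50 counts, 18 with TMM and adjustment over the tested genes together, and 4 to 8 with a rat left out. Listed totals moved the median of all genes by -1.23, the other scalings by -0.29 to -0.32. With listed totals the log2 fold change turned negative for AABR07073038.1 (-0.88), AABR07010030.1 (-0.84), Ubb (-0.80), the gene at chr7:3051627-3053901 (-0.60), AABR07031521.1 (-0.58), AC099089.1 (-0.56), Gm22877 (-0.55), Mir184 (-0.49), AABR07064111.1 (-0.38) and AABR07004894.1 (-0.12).

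Rats of both groups are numbered 1 to 5, but same-numbered rats are different animals, their deviations correlated between -0.26 and 0.22 over 2932 genes, and no rat correlated best with its own number. With the replicate number as a block 68 members were called higher and 7 lower, with 3 DEGs lower. No share over all tested genes was computed for this fit.

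Depth limits 22 members that were not tested, and the total depth of each rat is not known from the listed genes.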
